A study of Mus musculus with 9 samples.

Results

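The genes described here carry out glycolysis or belong to the response of cells to low oxygen. A list of 43 gene symbols was looked up by name in a count table of 55487 genes, and every symbol was found. One symbol, Aldoa, stands for 2 Ensembl identifiers, so the list covers 44 identifiers, of which 43 passed the filter on low counts and were tested among 16955 genes. The one left out was Ldhb, the heart-type lactate dehydrogenase subunit, with 0 to 4 counts per library. The cells were MCEC, an established endothelial line from mouse heart, with one group labelled WT, one of cells with Zbtb46 knocked down (KD) and one of cells in which Zbtb46 was overexpressed (OE), each of 3 libraries. Zbtb46 encodes a BTB and zinc finger transcription factor. How Zbtb46 was knocked down or overexpressed is not in the labels, nor whether each is a clone or a pool, and no library from cells with a control vector was analysed here. The labels also do not say whether replicates were separate cultures, so p-values measure the spread between these libraries, which may be technical.

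Glycolysis turns glucose into pyruvate in the cytosol, and endothelial cells are known to rely on it for much of their ATP. When oxygen is short, prolyl hydroxylases stop marking the alpha subunits of hypoxia-inducible factor (HIF) for degradation, and HIF then raises transcription of glucose carriers, glycolytic enzymes, lactate export and pyruvate dehydrogenase kinases. HIF alpha subunits are controlled mainly at the protein level, which RNA counts do not measure. Txnip and Arrdc4 encode alpha-arrestins that restrain glucose uptake, and their transcription follows glucose through the factors MondoA and ChREBP.

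Total counts ran from 39491828 to 55745849 per library. Levels are given as CPM, the counts scaled to library size with TMM factors. Zbtb46 itself stood at 13.7 ± 0.623 CPM in WT (mean ± SD of 3 libraries), 11.2 ± 0.537 in KD and 191 ± 2.67 in OE, a log2 fold change of -0.28 (adjusted p = 0.00144 in edgeR) in KD and 3.81 (adjusted p = 3.22e-21) in OE. Ribosomal RNA features, those of mitochondria included, took 7.44% to 17.3% of the counts in WT, 9.55% to 12.0% in KD and 14.4% to 18.2% in OE. Leaving them out lost 1 of 83 calls among the listed genes. Of 15 endothelial markers, 5 reached 1 CPM in WT (Kdr, Flt1, Tek, Eng and Egfl7), with a summed level of 147 to 159.7 CPM in WT, 124 to 131 in KD and 107 to 118 in OE. Erg had no count in any library, and Cldn5, Cdh5, Emcn and Icam2 were at or near 0. Of 10 fibroblast and smooth muscle markers, 6 reached 1 CPM in every group (Pdgfra, Pdgfrb, Dcn, Col1a1, Col3a1 and Acta2). Lum, Col1a2, Myh11 and Tagln did not in any group. The 10 summed to 8104 to 8972 CPM in WT, 8048 to 8175 in KD and 5078 to 5189 in OE. Epithelial markers, 2 of 6 at 1 CPM or more (Krt14 and Krt8), summed to 508 to 583 CPM in WT, 581 to 602 in KD and 429 to 435 in OE. Leukocyte and cardiomyocyte markers summed to at most 5.75 and 1.68 CPM in any library. The part of these marker levels in the changes of the listed genes was not tested.

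In WT cells the glycolytic core was strongly expressed. Per kilobase of annotated exon, the highest levels belonged to Gapdh at 482 ± 33.5 CPM per kb (SD, n = 3), Pkm at 468 ± 36.3, Tpi1 at 329.5 ± 18.7, Ldha at 294 ± 7.72, Pgam1 at 262 ± 5.80, Aldoa at 237 ± 17.4, Eno1 at 204 ± 6.26 and Pgk1 at 149.9 ± 1.87. Gapdh and Pkm did not differ beyond their spread. Besides Ldhb, the lowest were Pfkfb2 at 0.566 ± 0.0460, Arrdc4 at 0.411 ± 0.00999 and Slc2a3 at 0.302 ± 0.0263 CPM per kb. Summed over the listed genes, the level was 10926 ± 499 CPM in WT, 9995 ± 104 in KD and 13682 ± 196 in OE.

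Most of the listed genes were higher in OE than in WT, and a smaller number were lower in KD. This list and the lists of neighbouring pathways given further below were chosen with earlier results of these data known. Their counts, set beside the shares over all genes tested, are therefore no independent check. In OE, 27 of 43 tested identifiers rose and 4 fell at an adjusted p under 0.05 (quasi-likelihood test in edgeR, p-values adjusted by Benjamini and Hochberg over all genes tested), where 17% of all tested genes rose and 19.5% fell. Their median log2 fold change was 0.42, against 0.002 over all genes tested. In KD, 2 rose and 16 fell, where 11% of all tested genes rose and 10.4% fell, with a median of -0.09 against -0.0022. Between OE and KD, 29 were higher and 5 lower in OE, where the shares over all tested genes were 19.4% and 22.1%, and the median was 0.53. The comparisons share libraries, KD and OE both being set against the same 3 WT libraries, so their values are given side by side and one is no check on the other. A minimum fold change of 1.5 in the test left 3 called identifiers in KD (1.62% of all genes tested were called), 12 in OE (4.68%) and 16 between OE and KD (7.85%). In RNA from whole cultures, fewer cells expressing a gene and less of its RNA per cell cannot be told apart.

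**Figure D1:**
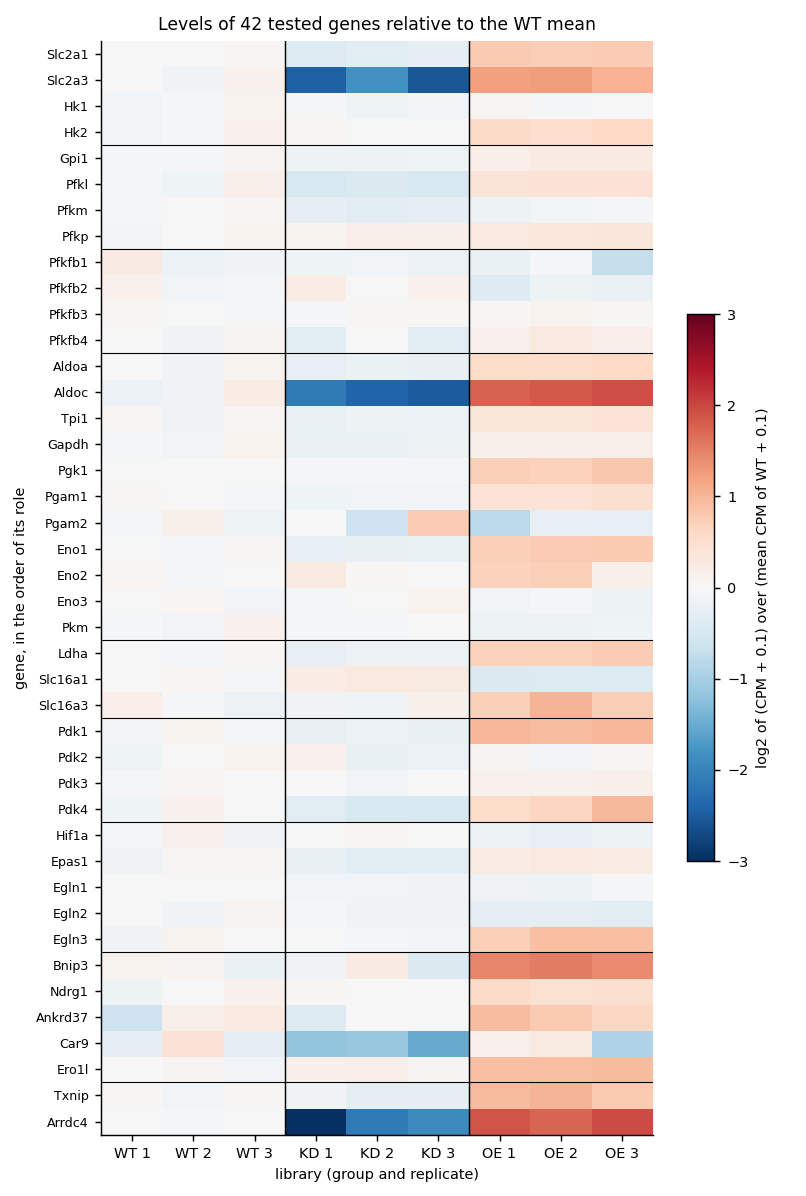
Heat map of 42 tested genes (rows, in the order of their role in the pathway) over 9 libraries (columns). Colour is the log2 ratio of CPM + 0.1 to the WT mean + 0.1, and the scale stops at 3 in either direction. Most rows are red across the 3 OE libraries, and Slc2a3, Aldoc, Car9 and Arrdc4 are the deepest blue in KD.

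**Figure D2:**
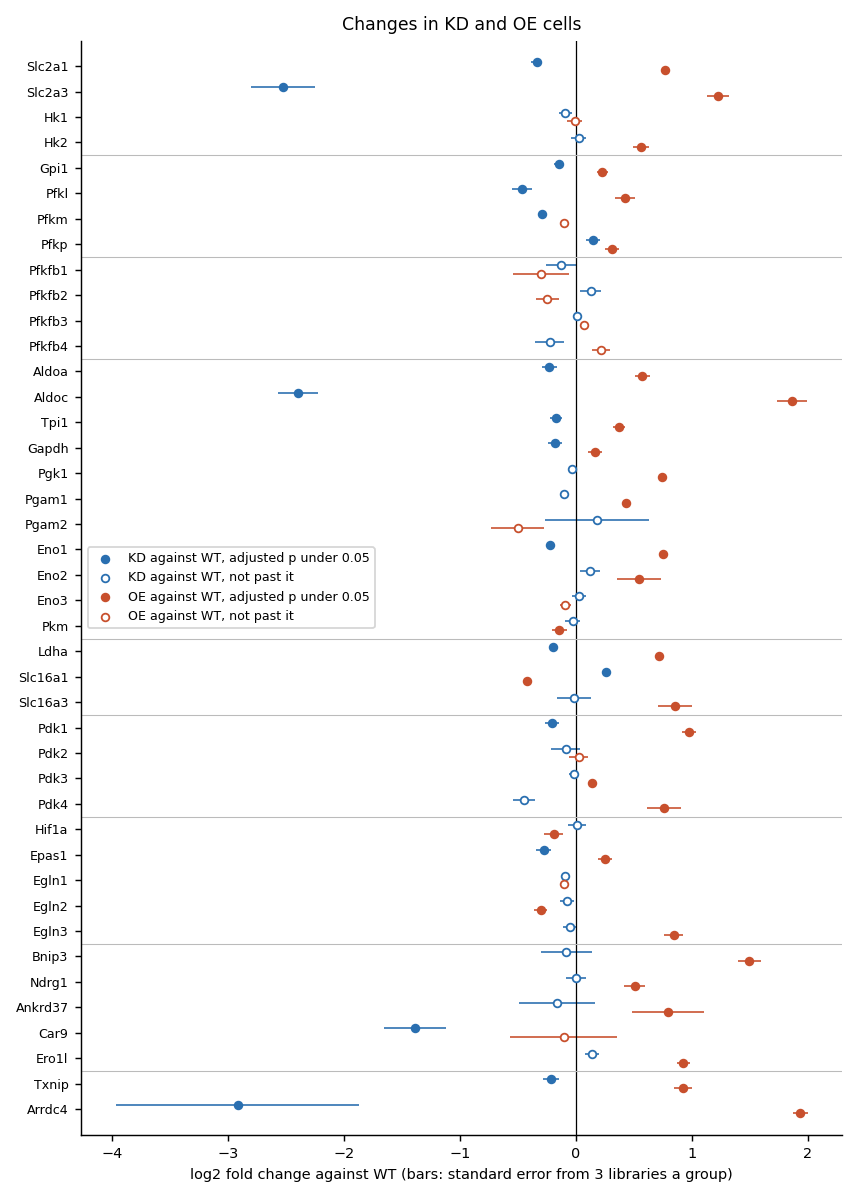
Log2 fold change of 42 genes in KD (blue) and OE (red) against WT, with the standard error from 3 libraries a group. Filled points passed an adjusted p of 0.05 and open points did not. Both sets of points use the same WT libraries. Points in OE lie mainly to the right of 0, and the longest shifts in KD, to the left, belong to Arrdc4, Slc2a3 and Aldoc.

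Both glucose carriers fell in KD and rose in OE. Slc2a1 encodes GLUT1, the carrier that most cells use for basal glucose uptake, and stood at 99.2, 98.8 and 103 CPM in WT, 74.9, 79.6 and 83.3 in KD, and 172, 168 and 171 in OE. The 3 groups did not overlap, with KD lowest and OE highest. Its log2 fold change was -0.34 (SE 0.047, adjusted p = 1.51e-05) in KD and 0.77 (SE 0.020, adjusted p = 2.20e-11) in OE. Slc2a3 encodes GLUT3, a carrier of high affinity best known from neurons, and stood far lower, at 2.16, 2.02 and 2.39 CPM in WT, 0.318, 0.553 and 0.287 in KD, and 5.26, 5.39 and 4.65 in OE. Its groups did not overlap either, and its changes were larger, -2.53 (SE 0.27, adjusted p = 1.60e-07) in KD and 1.22 (SE 0.097, adjusted p = 1.59e-05) in OE, so that OE exceeded KD 13.4-fold. Of the enzymes that trap glucose as glucose 6-phosphate, Hk2 changed in OE and Hk1 in neither comparison. Hk2, the hexokinase that many cells induce, stood at 40.9, 42.3 and 47.3 CPM in WT, 45.1, 43.4 and 44.2 in KD, and 64.9, 61.4 and 66.1 in OE. Every OE library exceeded the WT libraries, while the KD values fell within the WT range, and the log2 fold change was 0.56 (SE 0.071, adjusted p = 1.17e-07) in OE and 0.02 (SE 0.066, adjusted p = 0.836) in KD. Hk1, the constitutive form, differed by -0.09 in KD and -0.01 in OE, neither past the test. Slc2a1 lies on chromosome 4 in a 20 Mb window where the median tested gene was 0.36 higher in OE on the log2 scale. With such window medians removed, its log2 fold change in OE was 0.41, still past the test (adjusted p = 7.15e-07 in limma).

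The next steps convert glucose 6-phosphate to fructose 1,6-bisphosphate, where phosphofructokinase sets much of the pace of glycolysis. Pfkl, the liver-type subunit, stood at 189, 179 and 219 CPM in WT, 141, 144 and 141 in KD, and 257, 266 and 265 in OE. Its groups did not overlap, and its log2 fold change was -0.46 (SE 0.087, adjusted p = 7.58e-06) in KD and 0.42 (SE 0.088, adjusted p = 5.96e-06) in OE. The other subunits had other patterns. Pfkm, the muscle type, fell in KD, at -0.30 (SE 0.034, adjusted p = 1.05e-04), and was -0.10 in OE, which did not pass the test. Pfkp, the platelet type, was called higher in both, 0.15 in KD and 0.31 in OE. The KD call of Pfkp was lost when any of 6 libraries was left out (KD replicate 1, KD replicate 2, KD replicate 3, OE replicate 1, OE replicate 2 or WT replicate 1), with adjusted p from 0.0511 to 0.162. Its exons overlap those of Pitrm1 on the other strand, and use of strand in the counting is not given in the sources used here. Gpi1, the isomerase before this step, was -0.15 in KD and 0.23 in OE, and its KD call was lost without KD replicate 1 or KD replicate 2 (adjusted p = 0.0607 and 0.0577 in edgeR). The PFKFB enzymes make and remove fructose 2,6-bisphosphate, the activator of phosphofructokinase, and none of the 4 passed the test against WT in KD or OE. Their log2 fold changes ran from -0.23 to 0.13 in KD and from -0.30 to 0.22 in OE. Pfkfb3, the form most studied in endothelial cells and per kilobase the highest of the 4, stood at 48.4 ± 1.17 CPM in WT, 48.8 ± 1.64 in KD and 50.7 ± 1.34 in OE. Between OE and KD, Pfkfb4 was higher in OE by 0.44 and Pfkfb2 lower, at -0.37. The latter call was lost without KD replicate 1, KD replicate 3, OE replicate 1, OE replicate 2 or OE replicate 3, with adjusted p from 0.0557 to 0.165.

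From aldolase to pyruvate kinase, 8 of 12 identifiers rose in OE and 1 fell, where 17% of all genes tested rose and 19.5% fell. In KD, 5 of the 12 fell and none rose, where 10.4% of all genes tested fell and 11% rose. The largest change was in Aldoc, the aldolase best known from brain, at 7.78, 8.15 and 10.3 CPM in WT, 1.93, 1.56 and 1.45 in KD, and 30.2, 31.3 and 33.8 in OE. Its groups lay far apart: KD was 5.28-fold below WT and OE 3.64-fold above it. The log2 fold changes were -2.40 (SE 0.17, adjusted p = 3.88e-11) in KD and 1.86 (SE 0.13, adjusted p = 8.41e-12) in OE. Aldoa, the common aldolase, stood at 687, 641 and 742 CPM in WT, 579, 598 and 588 in KD, and 1016, 1013 and 1048 in OE. Here too the groups were separate, with log2 fold changes of -0.23 (SE 0.063, adjusted p = 7.63e-04) in KD and 0.57 (SE 0.063, adjusted p = 2.48e-09) in OE. The second Aldoa identifier, with 0.697 CPM in WT, was not called in either.

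Triose phosphate isomerase, Tpi1, stood at 924, 849 and 948 CPM in WT, 792, 820.4 and 802 in KD, and 1159, 1159 and 1197 in OE. It was lowest in KD and highest in OE without overlap, at -0.17 (SE 0.050, adjusted p = 0.00439) and 0.37 (SE 0.050, adjusted p = 4.14e-07) on the log2 scale. Gapdh, the dehydrogenase of the following step and often used as a reference gene, stood at 1945, 1887 and 2150.3 CPM in WT, 1736, 1747 and 1786 in KD, and 2199, 2235 and 2266 in OE. Its shifts were small but also without overlap, -0.18 (SE 0.058, adjusted p = 0.00361) in KD and 0.16 (SE 0.058, adjusted p = 0.00461) in OE, and between OE and KD Gapdh differed 1.27-fold. Scaled by library totals alone, the OE difference was 0.10 and not past the test (adjusted p = 0.225 in edgeR). Pgk1, which makes the first ATP of the pathway, stood at 341, 335 and 333 CPM in WT, 324, 329.7 and 329 in KD, and 551, 546 and 588 in OE. OE was well clear of WT, and KD lay just under it, with log2 fold changes of 0.74 (SE 0.035, adjusted p = 4.94e-12) and -0.04 (SE 0.014, adjusted p = 0.559), so that the KD difference did not pass the test. Pgam1, phosphoglycerate mutase, stood at 529.6, 522 and 507 CPM in WT, 472, 492 and 487 in KD, and 688, 693 and 725 in OE. It rose in OE by 0.43 (SE 0.030, adjusted p = 1.26e-08), and its KD difference of -0.10 did not pass the test, although the groups did not overlap.

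Eno1, the common enolase, stood at 1107, 1058 and 1122 CPM in WT, 926, 936 and 957 in KD, and 1808, 1854 and 1878 in OE. The groups did not overlap, at -0.22 (SE 0.029, adjusted p = 1.57e-04) in KD and 0.75 (SE 0.030, adjusted p = 1.59e-12) in OE. Its window on chromosome 4 had a median of 0.30 for OE and -0.16 for KD. After removal of window medians Eno1 was 0.45 in OE, still past the test, and -0.07 in KD, which was not (adjusted p = 0.172 in limma). A near-identical intronless copy, Eno1b, held 20.02% of the counts of both, which cannot be assigned between them with certainty. Their sum changed by -0.22 in KD and 0.76 in OE. Eno2, the enolase of neurons and a known HIF target, stood at 48.4, 45.5 and 46.5 CPM in WT, 56.8, 48.1 and 47.6 in KD, and 75.7, 77.2 and 51.6 in OE. It rose in OE by 0.54 (SE 0.19, adjusted p = 0.0234), where OE replicate 3 lay close to WT, and the KD values overlapped WT. The OE call of Eno2 was lost without OE replicate 1, WT replicate 1, WT replicate 2 or WT replicate 3, with adjusted p from 0.0566 to 0.115. Eno3, the muscle enolase, and Pgam2, the muscle mutase at 0.520 ± 0.0613 CPM in WT, were called in neither comparison. Pkm, pyruvate kinase, was the only one of the 12 called lower in OE, at 2341 ± 182 CPM in WT, 2294 ± 13.6 in KD and 2116 ± 20.6 in OE, with a log2 fold change of -0.15 (SE 0.064, adjusted p = 0.0124). The direction depended on the treatment of its neighbourhood: the median gene of its window on chromosome 9 was -0.41 in OE, and with that removed Pkm was 0.25, past the test in the opposite direction (adjusted p = 1.12e-04 in limma). The call was also lost without OE replicate 1 or OE replicate 2 (adjusted p = 0.0587 and 0.0511 in edgeR).

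At the end of the pathway, Ldha and the lactate carrier Slc16a3 rose in OE and the carrier Slc16a1 fell. Ldha, the subunit that favours pyruvate reduction to lactate, stood at 987, 945 and 991 CPM in WT, 820.2, 863 and 856 in KD, and 1583, 1583 and 1642 in OE. The groups did not overlap, at -0.20 (SE 0.032, adjusted p = 4.68e-04) in KD and 0.72 (SE 0.028, adjusted p = 4.42e-12) in OE. Slc16a1 encodes MCT1, which carries lactate and pyruvate in either direction, and stood at 254, 264 and 246 CPM in WT, 295, 311 and 307 in KD, and 189.6, 190.2 and 191 in OE. Its order was reversed, with KD highest and OE lowest and no overlap, at 0.26 (SE 0.036, adjusted p = 7.63e-05) and -0.42 (SE 0.029, adjusted p = 4.21e-08). Slc16a3 encodes MCT4, the exporter that HIF is known to induce, and was low, at 3.90, 3.23 and 2.998 CPM in WT, 3.12, 3.09 and 3.75 in KD, and 5.56, 6.95 and 5.71 in OE. All 3 OE libraries exceeded WT and KD, which overlapped each other, and the log2 fold change was 0.85 (SE 0.15, adjusted p = 1.23e-04) in OE and -0.02 (SE 0.14, adjusted p = 0.961) in KD. Per kilobase of exon, Slc16a1 still stood at 42.98 ± 0.134 CPM per kb in OE and Slc16a3 at 1.14 ± 0.143.

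The pyruvate dehydrogenase kinases switch off the enzyme that feeds pyruvate into mitochondria. In OE, 3 of 4 rose, where 17% of all genes tested did. Pdk1, a HIF target, stood at 33.2, 37.9 and 34.1 CPM in WT, 30.3, 31.2 and 30.0 in KD, and 69.8, 67.0 and 69.8 in OE. It was 1.96-fold higher in OE, a log2 fold change of 0.97 (SE 0.061, adjusted p = 2.40e-11), and lower in KD, at -0.21 (SE 0.061, adjusted p = 0.0148). The groups did not overlap, but the KD call was lost without KD replicate 1, KD replicate 3 or WT replicate 2, with adjusted p from 0.0566 to 0.0665. Pdk4, induced by fasting in many tissues, stood at 2.21, 2.66 and 2.42 CPM in WT, 1.93, 1.73 and 1.70 in KD, and 3.62, 3.88 and 4.89 in OE. OE lay above and KD below WT, at 0.76 (SE 0.15, adjusted p = 0.00121) and -0.45 (SE 0.092, adjusted p = 0.0842), so that only the OE difference passed. Pdk3, per kilobase of exon the kinase of highest level here, changed by 0.14 (SE 0.027, adjusted p = 0.0438) in OE, a call lost in 8 of 9 fits that left out 1 library: those without KD replicate 1, KD replicate 2, KD replicate 3, OE replicate 1, OE replicate 2, OE replicate 3, WT replicate 1 or WT replicate 3, with adjusted p from 0.0559 to 0.123. Pdk2 was called in neither comparison.

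The mRNA of Hif1a fell slightly in OE, and that of Epas1 fell in KD and rose in OE. Hif1a, which encodes HIF-1 alpha, stood at 136, 153 and 129.6 CPM in WT, 138, 144 and 139 in KD, and 123, 117 and 126 in OE. KD overlapped WT and every OE library lay below it, at 0.01 (SE 0.075, adjusted p = 0.95) in KD and -0.19 (SE 0.078, adjusted p = 0.00661) in OE. Without OE replicate 2 the OE difference was -0.16 and no longer past the test (adjusted p = 0.0516 in edgeR). Epas1, which encodes HIF-2 alpha and is prominent in endothelium, stood at 41.7, 45.8 and 46.9 CPM in WT, 38.6, 35.9 and 36.1 in KD, and 52.5, 55.2 and 51.9 in OE. Its groups did not overlap, at -0.28 (SE 0.062, adjusted p = 0.00135) in KD and 0.25 (SE 0.059, adjusted p = 0.00169) in OE, and OE exceeded KD by 0.53 (SE 0.044, adjusted p = 1.89e-07). Scaled by library totals alone, the OE difference was 0.18 and did not pass the test (adjusted p = 0.0851 in edgeR). Among the prolyl hydroxylases that mark HIF, Egln3, itself a HIF target, stood at 12.3, 14.2 and 13.2 CPM in WT, 13.3, 12.7 and 12.5 in KD, and 21.7, 24.9 and 24.6 in OE. OE was above all other libraries, at 0.84 (SE 0.085, adjusted p = 4.16e-08), while KD overlapped WT at -0.05 (SE 0.064, adjusted p = 0.734). Egln2 fell in OE, at -0.31 (SE 0.058, adjusted p = 7.08e-05). Egln1, the main oxygen sensor, was -0.09 in KD and -0.10 in OE, neither past the test. Its window on chromosome 8 had a median of -0.44 in OE, and after its removal Egln1 was 0.34 higher (adjusted p = 4.58e-06 in limma).

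Of 5 genes listed for their induction by hypoxia, 4 rose in OE and 1 fell in KD. Over all genes tested, 17% rose in OE and 10.4% fell in KD. Bnip3, a mitochondrial protein of mitophagy, stood at 8.01, 7.93 and 6.56 CPM in WT, 6.97, 8.89 and 5.49 in KD, and 21.04, 22.1 and 20.3 in OE. OE was 2.82-fold above WT, a log2 fold change of 1.49 (SE 0.10, adjusted p = 5.63e-08), and KD overlapped WT at -0.08 (SE 0.22, adjusted p = 0.739). Ero1l, the oxidase that forms disulfide bonds in the endoplasmic reticulum, stood at 35.5, 38.0 and 33.5 CPM in WT, 39.5, 40.9 and 37.6 in KD, and 67.3, 66.7 and 69.2 in OE. It rose in OE by 0.92 (SE 0.055, adjusted p = 4.94e-11), and its KD value of 0.14 did not pass the test. Ndrg1, a stress-induced cytosolic protein, stood at 26.8, 30.3 and 32.9 CPM in WT, 30.6, 30.0 and 29.7 in KD, and 44.7, 41.5 and 41.7 in OE. Only OE was separate from WT, at 0.51 (SE 0.092, adjusted p = 3.97e-06). Ankrd37, a small ankyrin-repeat protein, was low, at 1.19, 2.15 and 2.33 CPM in WT, 1.41, 1.86 and 1.86 in KD, and 3.67, 3.33 and 2.93 in OE. OE exceeded WT by 0.79 (SE 0.31, adjusted p = 0.00651), and KD overlapped WT. Ankrd37 had 982 counts over all libraries and its exons overlap, on the other strand, those of Ufsp2, which had 20687. Car9, carbonic anhydrase IX at the cell surface and a widely used hypoxia marker, stood at 1.79, 2.96 and 1.77 CPM in WT, 0.894, 0.929 and 0.697 in KD, and 2.39, 2.62 and 1.09 in OE. It did not follow the others: KD lay below WT without overlap, at -1.39 (SE 0.27, adjusted p = 0.00316), and OE overlapped WT at -0.11 (SE 0.46, adjusted p = 0.815).

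The alpha-arrestins that limit glucose uptake rose in OE together with the glucose carriers. Txnip, which binds thioredoxin and promotes removal of glucose carriers from the cell surface, stood at 27.8, 25.9 and 27.9 CPM in WT, 25.4, 22.6 and 22.2 in KD, and 52.3, 55.5 and 46.7 in OE. The groups did not overlap. OE was 1.89-fold above WT, a log2 fold change of 0.92 (SE 0.081, adjusted p = 1.46e-09), and KD differed by -0.22 (SE 0.070, adjusted p = 0.0383). The KD call of Txnip was lost without KD replicate 2, KD replicate 3, OE replicate 1, WT replicate 1 or WT replicate 3, with adjusted p from 0.0579 to 0.177. Arrdc4, its closest paralogue, stood at 1.69, 1.61 and 1.68 CPM in WT, 0, 0.301 and 0.369 in KD, and 6.46, 5.84 and 6.73 in OE. KD replicate 1 had no count, which allows up to 0.0596 CPM at 3 counts, and the other KD libraries had 12 and 18 counts. The groups were separate, at -2.92 (SE 1.05, adjusted p = 3.33e-04) in KD and 1.93 (SE 0.064, adjusted p = 1.77e-04) in OE. Without KD replicate 1 the KD difference was -2.28, without KD replicate 3 it was -3.59, and with limma-voom -4.07. With window medians removed the OE difference was 1.88, no longer past the test (adjusted p = 0.122 in limma). The median of its window in OE was only 0.025, and that fit also used limma in place of edgeR. The part of each change in the lost call was not tested.

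**Figure D3:**
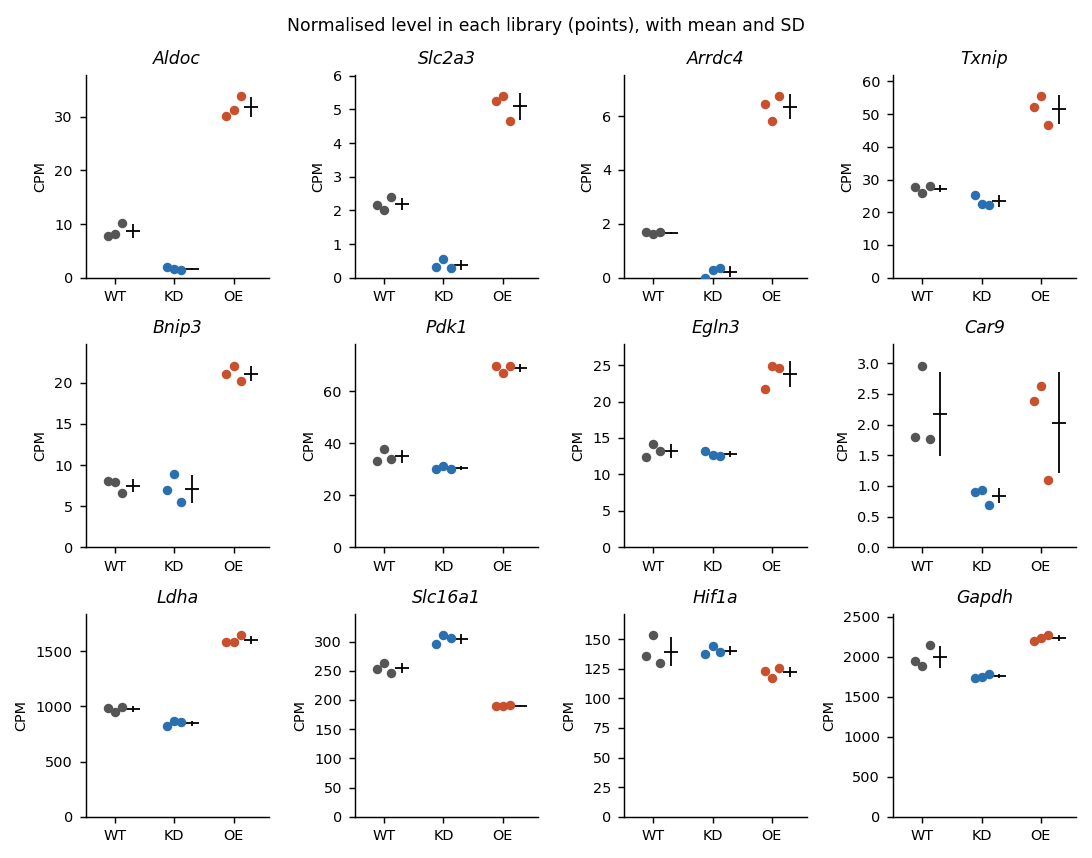
CPM of 12 genes in each library (points) with the mean and SD of each group (bar beside the points). Every axis starts at 0. Aldoc, Slc2a3, Arrdc4 and Ldha are ordered KD, WT, OE without overlap; Slc16a1 runs in the opposite order; Bnip3 and Egln3 are raised in OE alone; Car9 is low in KD alone; and Hif1a and Gapdh move little.

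Sequence before the start sites was examined for the letters that HIF and the glucose-responsive factors are known to bind. RefSeq promoters on GRCm38.p6 were found for 40 of the 43 symbols, 60 start sites in all, and not for Slc2a3, Ndrg1 or Epas1. The HIF core was searched as ACGTG or GCGTG on both strands in the 250 bases before each start. It was present at 47 of 60 starts (78.3%) and in 36 of 40 genes. The share was 38.6% over all 32851 promoters and 54.9% over the 13571 promoters whose gene was tested here, and 60.7% of those 10644 genes had it at 1 start or more. The genes without it were Eno2, Gpi1, Pgam2 and Tpi1, of which Eno2, Gpi1 and Tpi1 rose in OE. CACGTG, an E-box that contains ACGTG on both strands, was present at 9 of 60 starts (15.0%), against 6.02% of all promoters and 8.07% of those of tested genes. The carbohydrate response element was searched as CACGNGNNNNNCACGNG, in which each CACGNG can overlap the other motifs, and was found at 1 start, that of Txnip, in 0.0457% of all promoters and in 0.0663% of those of tested genes. A match is a run of letters, not a measured binding site.

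Sequences are printed for the genes with the largest fold changes in OE (Aldoc and Arrdc4). Txnip is printed for its match to the searched form of the carbohydrate response element. Bnip3 and Ldha are printed as the induced genes with the most core matches, each with 5. Each run is the 250 bases before the most upstream RefSeq start, 5′ to 3′ on the strand of the gene. Capitals mark the HIF core on either strand and, in Txnip, also the fixed letters of the CACGNG pair. They lie, in the same order, at chr11:78322823-78323072, plus strand, chr7:68749239-68749488, minus strand, chr3:96557707-96557956, plus strand, chr7:138909507-138909756, minus strand and chr7:46845554-46845803, plus strand of GRCm38.p6.
Aldoc: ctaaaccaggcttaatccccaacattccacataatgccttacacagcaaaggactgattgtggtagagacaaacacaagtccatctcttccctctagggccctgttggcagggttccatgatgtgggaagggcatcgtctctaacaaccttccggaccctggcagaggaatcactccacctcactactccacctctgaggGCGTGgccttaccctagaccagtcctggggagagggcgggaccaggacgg
Arrdc4: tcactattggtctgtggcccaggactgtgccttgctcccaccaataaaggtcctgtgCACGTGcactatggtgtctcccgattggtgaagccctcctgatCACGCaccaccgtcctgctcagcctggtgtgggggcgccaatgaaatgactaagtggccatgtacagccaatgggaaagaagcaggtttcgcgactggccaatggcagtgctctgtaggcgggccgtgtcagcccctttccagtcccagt
Txnip: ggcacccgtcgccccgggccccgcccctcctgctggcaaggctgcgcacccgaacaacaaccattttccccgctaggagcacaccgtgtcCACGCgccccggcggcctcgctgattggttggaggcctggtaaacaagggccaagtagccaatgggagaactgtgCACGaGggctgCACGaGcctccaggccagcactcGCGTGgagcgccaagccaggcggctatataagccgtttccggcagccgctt
Bnip3: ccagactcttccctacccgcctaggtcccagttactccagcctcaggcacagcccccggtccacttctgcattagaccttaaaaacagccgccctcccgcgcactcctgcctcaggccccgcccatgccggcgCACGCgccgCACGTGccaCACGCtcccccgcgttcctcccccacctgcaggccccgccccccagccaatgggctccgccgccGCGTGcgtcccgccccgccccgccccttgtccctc
Ldha: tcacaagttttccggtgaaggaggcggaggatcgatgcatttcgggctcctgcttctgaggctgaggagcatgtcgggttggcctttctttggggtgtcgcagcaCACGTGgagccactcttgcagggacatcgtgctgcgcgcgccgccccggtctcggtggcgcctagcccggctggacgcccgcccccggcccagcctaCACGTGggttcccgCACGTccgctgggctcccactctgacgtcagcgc

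Aldoc held 1 core match, on the strand shown, Arrdc4 held 3 and Txnip 2. CACGTG reads the same on both strands and counts as 2 core matches. All printed genes rose in OE, but genes called lower in OE held core matches too. Slc16a1 had 4 and Hif1a 3, while the starts of Egln2 had 4 and 1 and those of Pkm 0 and 1. A relation between matches and changes was not tested.

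Counts per kilobase of exon allowed isozymes to be compared within a family, as shares of the family's summed level. Hk2 held 47.2% ± 0.260 of the hexokinase level in WT (mean ± SD, n = 3), 49.2% ± 0.229 in KD and 57.1% ± 0.851 in OE. Pfkl held 49.5% ± 1.83 of phosphofructokinase in WT, 44.7% ± 0.633 in KD and 56.8% ± 0.234 in OE. Aldoc stayed a minor aldolase, with 1.11% ± 0.110, 0.249% ± 0.0409 and 2.69% ± 0.110 in WT, KD and OE, so that Aldoa carried the family in every library. Pdk1 went from 16.5% ± 0.588 of the kinase level in WT to 26.0% ± 0.338 in OE, with 15.1% ± 0.871 in KD. Egln3 held 8.64% ± 0.793 of the prolyl hydroxylases in WT, 8.84% ± 0.107 in KD and 16.4% ± 1.02 in OE. Arrdc4 held 4.50% ± 0.0798 of the sum with Txnip in WT, 0.763% ± 0.673 in KD and 8.76% ± 1.25 in OE. Each of these OE shares lay outside the range of the WT libraries. The shares are a description without a test, and they rest on the lengths used: with the longest transcript in place of all exons, Hk2 held 32.7% in WT and 41.9% in OE.

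**Figure D4:**
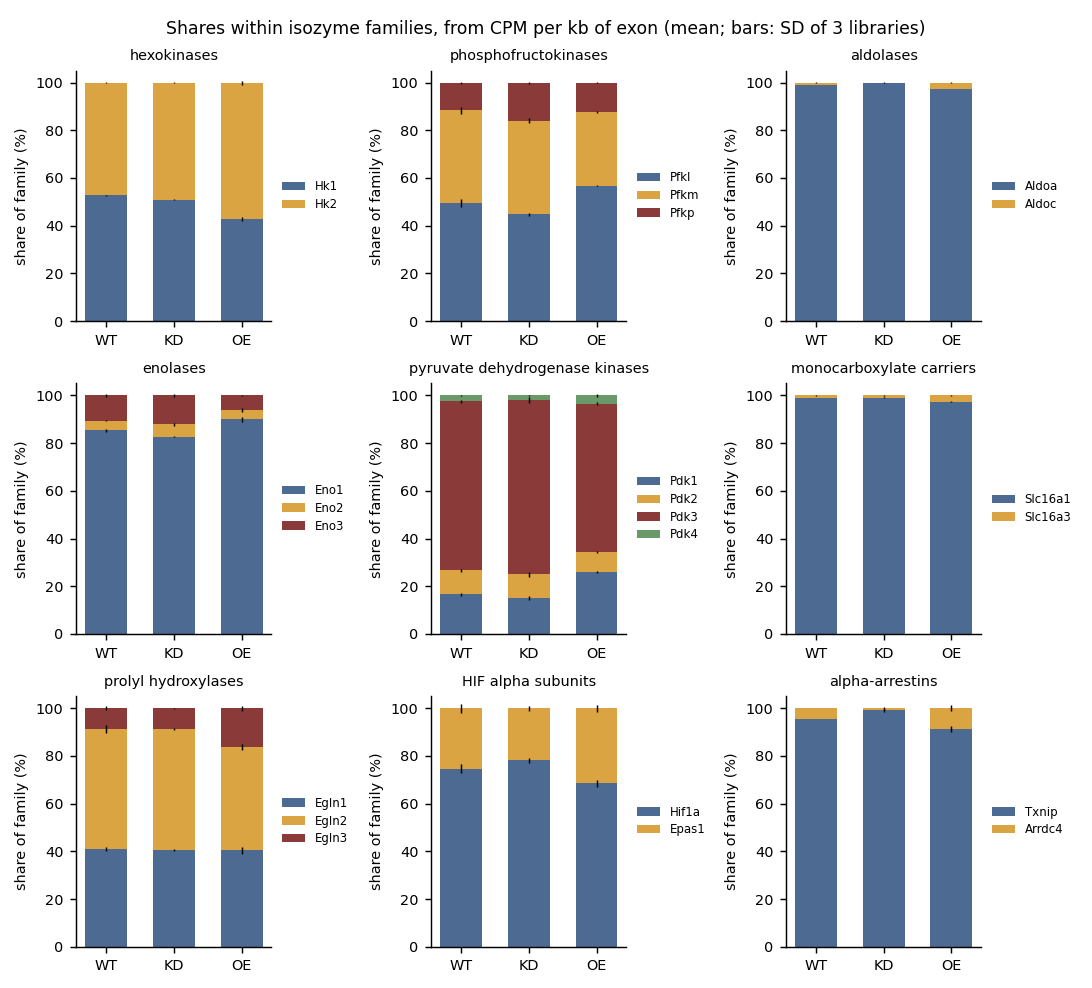
Share of each family's level, from CPM per kb of exon, held by each isozyme in WT, KD and OE (stacked bars from 0 to 100%, mean of 3 libraries; black bars: SD, drawn at the top of each segment). Hk2, Pfkl, Pdk1 and Egln3 take larger shares in OE than in WT, and Aldoa, Slc16a1 and Txnip hold most of their families in every group.

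Many known HIF targets outside the 43 genes rose in OE as well. Their list was chosen with earlier results of these data known, so it is no independent check. Of 34 such genes, 24 rose (70.6%) and 3 fell (8.82%) in OE, and their median was 0.34 on the log2 scale. The shares over all genes tested were 17% and 19.5% in OE. For KD, 7 of the 34 rose (20.6%) and 8 fell (23.5%), and the median was -0.02. Both KD shares were larger than those over all genes tested, 11% higher and 10.4% lower. Rora, a nuclear receptor of circadian and metabolic control, went from 4.14 ± 0.0940 CPM in WT to 11.9 ± 1.46 in OE, a log2 fold change of 1.52 (SE 0.10, adjusted p = 4.76e-09), in a window whose median was -0.34. Vldlr, a lipoprotein receptor, rose by 1.43 (SE 0.065, adjusted p = 1.80e-10) in OE. Ddit4 encodes REDD1, which restrains mTORC1, and stood at 15.0, 14.2 and 15.1 CPM in WT, 9.30, 10.1 and 12.1 in KD and 31.4, 33.1 and 31.2 in OE. Its groups did not overlap, and it fell in KD, at -0.49 (SE 0.12, adjusted p = 3.28e-04), and rose in OE by 1.11 (SE 0.040, adjusted p = 1.06e-09). Vegfa, the main growth factor for vessels, was higher than WT in both, by 0.45 (SE 0.028, adjusted p = 2.01e-07) in KD and 0.40 (SE 0.043, adjusted p = 2.56e-07) in OE. Lox, the collagen cross-linking oxidase, rose in KD by 0.44 (SE 0.080, adjusted p = 2.76e-06) and fell in OE, at -0.52 (SE 0.077, adjusted p = 9.68e-08).

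Of 11 genes for HIF partners and oxygen sensing, 1 rose and 3 fell in OE, and 2 rose and 0 fell in KD. In OE these were 9.09% and 27.3%, where 17% of all genes tested rose and 19.5% fell. In KD the share that rose was 18.2%, against 11% of all genes tested, of which 10.4% fell. Arnt2, a partner of HIF alpha related to Arnt, fell in OE, at -0.78 (SE 0.057, adjusted p = 8.05e-10), and rose in KD by 0.32 (SE 0.056, adjusted p = 2.47e-04). Siah2, a ubiquitin ligase for prolyl hydroxylases, was higher in both, at 0.39 (SE 0.057, adjusted p = 2.04e-04) in KD and 0.54 (SE 0.040, adjusted p = 1.24e-06) in OE. Elob, a subunit of the ligase that takes up marked HIF, was -0.16 in OE. Between OE and KD, Arnt was 0.19 higher in OE, and the asparaginyl hydroxylase Hif1an differed by -0.19. The glucose-sensing list, with the other alpha-arrestins, had 2 of 5 higher and 1 lower in OE and none called in KD at an adjusted p under 0.05 in edgeR. The shares over all genes tested are those given above for the HIF partners. Mlx, the partner of MondoA and ChREBP, was 0.20 and the alpha-arrestin Arrdc1 -0.29 in OE.

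The pentose phosphate pathway branches off at glucose 6-phosphate to make NADPH and ribose. In OE, 6 of 8 of its genes rose and none fell, with a median of 0.22, where 17% of all genes tested rose and 19.5% fell. The largest rises were small: 0.34 for Rpia, 0.33 for Pgd and 0.31 for Rpe. Pgd lies in the same chromosome 4 window as Eno1, whose median was 0.30. In KD, 1 rose and 2 fell, with H6pd, the form of the first enzyme in the endoplasmic reticulum, at -0.53 (SE 0.043, adjusted p = 1.28e-07). The window of H6pd had a median of -0.16 in KD. Among 14 other glycolytic isozymes and carriers, 4 rose and 3 fell in OE, and 3 rose and 3 fell in KD, where over all genes tested 17% rose and 19.5% fell in OE and 11% and 10.4% in KD. Pgm1, listed for phosphoglucomutase, which links glycogen to glycolysis, rose in OE by 0.74 (SE 0.055, adjusted p = 1.61e-10), in a chromosome 4 window whose median was 0.27. Bpgm, which makes 2,3-bisphosphoglycerate, rose by 0.37. Tigar, which lowers fructose 2,6-bisphosphate, rose in KD by 0.53 (SE 0.030, adjusted p = 1.54e-05). Adpgk, an ADP-dependent glucokinase, rose in KD by 0.32 and fell in OE, at -0.30. Its chromosome 9 window had a median of 0.16 in KD and -0.41 in OE.

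The mitochondrial steps after pyruvate did not move one way. Of 10 genes for pyruvate dehydrogenase and the mitochondrial pyruvate carrier, 3 rose and 2 fell in OE, and 3 rose and 0 fell in KD. Over all genes tested, 17% rose and 19.5% fell in OE, and 11% rose and 10.4% fell in KD. Pdp2, a phosphatase that reverses the kinases above, rose in OE by 0.44 (SE 0.036, adjusted p = 6.93e-06). Dlat, the E2 subunit, rose in KD by 0.37 (SE 0.065, adjusted p = 3.51e-05), in a window with a median of 0.16. Pdha1, the E1 subunit that the kinases modify, rose in KD by 0.29 (SE 0.041, adjusted p = 1.19e-04), in a window with a median of 0.13. Of 16 citrate cycle genes, 5 rose and 6 fell in OE, with a median of 0.01, and 2 rose and 6 fell in KD. The share of this list that fell in KD was 37.5%, against 37.2% of the 43 tested identifiers and 10.4% of all genes tested. The largest falls in OE were Sdha at -0.54, Ogdh at -0.44 and Sdhd at -0.41. All 3 lie in windows whose median was itself -0.42, -0.52 and -0.41 in OE, in that order.

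**Figure D5:**
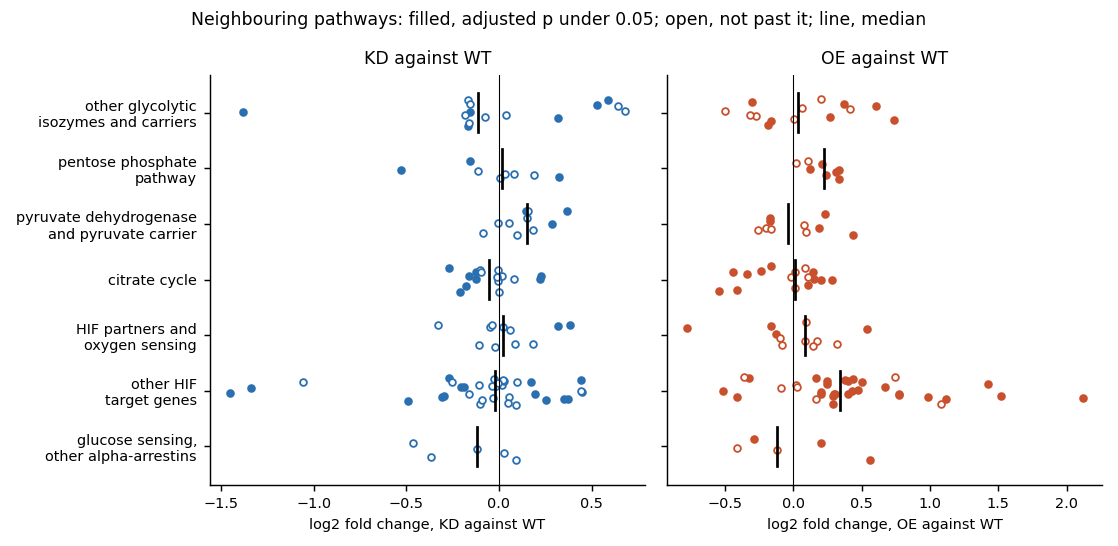
Log2 fold change against WT of genes in 7 neighbouring lists, in KD (left) and OE (right). Each point is a gene (filled where the adjusted p was under 0.05), heights within a row are jittered, and the black line is the median of the list. The row of other HIF targets has a median of 0.34 in OE and -0.02 in KD, and the citrate cycle has a median near 0 in both.

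The direct comparison of the modified lines gave the widest gaps. Arrdc4 was higher in OE than in KD by 4.85 (SE 1.05, adjusted p = 2.56e-07) on the log2 scale, Aldoc by 4.26 (SE 0.13, adjusted p = 2.86e-16) and Slc2a3 by 3.75 (SE 0.27, adjusted p = 2.36e-11). Without KD replicate 1, Arrdc4 stood at 4.21 and Aldoc at 4.39. Without KD replicate 3 Arrdc4 was 5.53, and with limma-voom 5.99. Bnip3 followed at 1.58 (SE 0.20, adjusted p = 1.86e-08), Car9 at 1.28 (SE 0.41, adjusted p = 0.00261) and Pdk4 at 1.20 (SE 0.14, adjusted p = 7.78e-06). The enzymes of high level differed by less: Eno1 by 0.98, Ldha by 0.92, Aldoa by 0.80, Pgk1 by 0.78, Tpi1 by 0.54 and Gapdh by 0.35. The 5 that were lower in OE were Slc16a1 at -0.68, Pfkfb2 at -0.37, Egln2 at -0.23, Hif1a at -0.20 and Pkm at -0.12. Calls for Pkm in this comparison were lost when any 1 KD or OE library was left out (adjusted p from 0.0669 to 0.126), and that for Pfkp, 0.16 higher in OE, was lost without KD replicate 1 (adjusted p = 0.0807 in edgeR).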

How the data were processed

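RNA of 9 MCEC samples was selected for poly-A tails and sequenced, per the labels' protocols, and the authors deposited raw counts per gene in 1 table. The builds named are GRCm38 and mm10, per the submitters' processing notes; the aligner, counter and use of strand are not given in the sources used here. Repeated rows of a gene (455 rows of 168 genes, with identical counts) were kept once, leaving 55487 genes. Positions and exons come from GENCODE M21. Genes were filtered with filterByExpr, scaled by TMM and fitted over all 9 libraries with the robust quasi-likelihood test of edgeR 4.0.16 (R 4.3.3), with Benjamini-Hochberg adjustment over 16955 genes and a threshold of 0.05. The script was tested on simulated data. Standard errors come from log2 CPM with a prior count of 2. Levels per kilobase use the union of annotated exons. Windows are fixed bins of 20 Mb with at least 10 tested genes. The fit with window medians removed used limma on log2 CPM in place of edgeR, so the test changed as well. Alternatives used DESeq2 1.42.0 and limma 3.58.1, other scalings, filters and lengths, a replicate block, and each library left out. Libraries of a group differed by 3.01 to 11.2 times sampling noise, so none is a second copy of another.

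Members given in full had an adjusted p under 0.05, an absolute log2 fold change of at least 0.5 and at least 1 CPM in a group in some contrast, with Gapdh, Hif1a and Epas1 added. In each neighbouring list, up to 3 genes a contrast were eligible to be named: the largest called changes with at least 5 CPM in a group and groups that do not overlap. Members and lists were chosen with earlier results of these data known.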

Additional observations from a re-analysis of the deposited data

How the results depend on the processing

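Of 129 comparisons of a listed gene (43 identifiers by 3 contrasts), 83 were called and 46 were not. Of the 83, 66 kept their call and direction under every alternative that tested them, other than a minimum fold change. The other 17 lost it at least once. The filter of at least 10 counts in every library tested 80 of the 83, as it left out Arrdc4. With a minimum fold change of 1.5, the called identifiers numbered 3 for KD and 12 for OE, each against WT, and 16 between OE and KD. Leaving out 1 library at a time gave 15 to 19, 28 to 31 and 32 to 34 in the same order. Library totals without TMM gave 16, 27 and 30. No scaling moved the median of all genes tested by 0.1 or more on the log2 scale.

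Among called differences, Pkm alone changed direction under any alternative run, and 19 of the 46 uncalled differences changed sign under some alternative, of which Hif1a and Egln1 are given. With window medians removed, Pkm in OE was 0.25 against WT and 0.43 against KD, and Egln1 was 0.34 and 0.47; these windows had lower medians in OE. Egln1 in OE against KD was also 0.0574 with upper-quartile factors and ran from -0.0261 to 0.0172 over the fits without 1 library. Hif1a in KD against WT was -0.0208 with upper-quartile factors, -0.0305 with library totals and -0.0618 with window medians removed, and ran from -0.0430 to 0.0812 over the fits without 1 library. The causes of these were not tested. The fit with window medians removed, which also used limma in place of edgeR, lost Gpi1, Pfkp and Txnip in KD. It lost Pfkm between OE and KD too. The part of the windows and of the test in these losses was not tested. Txnip in KD was also lost with limma-voom and no window removal (adjusted p = 0.0688). Scaling by library totals ended the calls of Pfkp and Txnip in KD, and of Eno2 and Pdk3 in OE. Such scaling also ended those of Pdk3, Pfkm, Pfkp and Pkm between OE and KD.

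With the longest transcript as length, the shares in WT, KD and OE were 32.7%, 34.5% and 41.9% for Hk2, 58.5%, 53.2% and 65.0% for Pfkl, 0.697%, 0.156% and 1.69% for Aldoc, 19.5%, 17.8% and 30.1% for Pdk1, and 7.42%, 7.58% and 14.4% for Egln3, and 4.23% for Arrdc4 in WT; the lengths by construction move the level, and the order of the groups was the same.

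Same-numbered libraries of different groups did not deviate together (9 correlations of deviations, -0.042 to 0.049), so the numbers were not taken as pairs. A replicate block gave 18, 30 and 34 called identifiers: it lost Pdk3 in OE against WT (adjusted p = 0.06) and Pfkfb2 in OE against KD (adjusted p = 0.0553), both in edgeR, and gained Eno2 in OE against KD. The widest errors against WT belonged to listed genes with few counts, such as Arrdc4 in KD (SE 1.05), Car9 in OE (SE 0.46) and Pgam2 in KD (SE 0.45). Few counts did not always give a wide error, as Arrdc4 in OE had an SE of 0.064. With 3 libraries a group, an exact two-sided permutation p cannot go under 0.1, so calls rest on the model over all genes.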

Other observations

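Some of the other HIF targets were large in OE but fell outside the rule for named genes or its first ranks, and are named here after their values were seen. Adm encodes adrenomedullin, a peptide that widens vessels, and went from 0.137 ± 0.0777 CPM in WT to 0.578 ± 0.256 in OE, a log2 fold change of 2.12 (SE 0.58, adjusted p = 0.007), at the edge of detection. Ak4, a mitochondrial adenylate kinase, went from 49.1 ± 2.97 CPM in WT to 97.5 ± 2.97 in OE, a log2 fold change of 0.99 (SE 0.057, adjusted p = 4.40e-12), in the chromosome 4 window of Slc2a1, whose median was 0.36. Fam162a, a mitochondrial protein, went from 58.8 ± 2.37 CPM in WT to 100.5 ± 4.85 in OE, a log2 fold change of 0.77 (SE 0.053, adjusted p = 1.54e-10), and P4ha2, a collagen prolyl hydroxylase, went from 92.8 ± 6.81 CPM in WT to 148 ± 2.503 in OE, a log2 fold change of 0.67 (SE 0.062, adjusted p = 8.94e-10). In KD none of the 4 passed the test in edgeR at an adjusted p under 0.05, with log2 fold changes of 0.05, -0.03, -0.10 and 0.03 in the same order.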
